A study of Mus musculus with 56 samples.

Results

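The comparison described here is that of mouse liver RNA-seq 45 days after deletion of miR-122 with 21 days after it. Genes were taken whose FPKM averaged 1 or more over the 6 libraries of both days, which left 11323 of the 21888 gene symbols in the table. FPKM count the sequenced fragments of a transcript, scaled to its length and to the size of the library, so that levels of different genes can be set side by side. Members just inside the limit were Dsg1c and Ampd3, with means that rounded to 1.00 FPKM over the 6 libraries, and just outside it Slc16a13 and Mks1 had 0.9995 FPKM each. A gene could enter through the day where it was high, and 404 of the genes taken had a mean under 1 FPKM at day 21 against 41 at day 45.

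All mice of both days carried miR-122 alleles with LoxP sites around the precursor and had received rAAV8-Cre, a vector that brings Cre recombinase to the liver through the tail vein. The Cre was driven by the Ef1a promoter, which is not limited to hepatocytes. There were 3 libraries at day 21 and 3 at day 45, with replicates named A, B and C, each of 1 mouse. Uninjected floxed mice served as day 0 (3 libraries), single floxed mice were taken at day 100 and day 200 after Cre, and 3 further libraries came from germline miR-122 knockout mice. The ages of the mice were not given in the labels used here.

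miR-122 is the most abundant microRNA of hepatocytes and lowers the levels of many messenger RNAs by pairing with sites in their 3′ untranslated regions. Mice that lack it are known for altered lipid metabolism, liver inflammation, fibrosis and, with age, liver tumours. The comparison sets a later state after its loss beside an earlier one, since a stable microRNA fades slowly after its gene is cut. Time since the vector also differed between the days, and no RNA-seq library came from mice given the vector without loss of miR-122. Effects of the vector or of time and those of the loss therefore cannot be told apart. In the small RNA libraries of the same days, miR-122 made up 12.6%, 13.2% and 8.22% of the microRNA signal in day 21 replicates A, B and C, and 0.908%, 0.383% and 1.23% in those of day 45. In uninjected mice it was 66.4% ± 7.06 (SD, n = 3). The 2 days did not overlap, and the difference had an exact two-sided permutation p of 0.1, the smallest that 3 libraries against 3 can give.

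Several features of the libraries bear on every comparison below. The Y-linked transcripts Ddx3y, Eif2s3y, Kdm5d and Uty summed to 52.5 FPKM in day 21 replicate C and 51.1 FPKM in day 45 replicate C, and to at most 0.061 FPKM in the other 4 libraries of these days, where Xist, the RNA of the inactive X chromosome, stood at 41.2 to 57.4 FPKM. Each day thus held 1 library with Y-linked transcripts and 2 with Xist. Day 0 replicate B and knockout replicate C carried such transcripts too, at 66.8 and 53.0 FPKM. The number of genes at 1 FPKM or more was 10832 to 10908 at day 21 and 11249 to 11846 at day 45, with the highest number in day 45 replicate B. Replicates of a day correlated with r of 0.956 to 0.977 at day 21 and 0.961 to 0.978 at day 45 on the log2 scale. In the knockout, replicate C correlated with A and B at only 0.887 to 0.902, against 0.988 between A and B. Since a single fit of all 14 libraries takes its estimate of the spread from the knockout too, calls between days 21 and 45 are given also from a fit of the 9 libraries of days 0, 21 and 45. Of the liver's defining transcripts, Ttr stood at 7500 to 9989 FPKM and Hnf4a at 164 to 254 FPKM in the 6 libraries, while the table listed Alb at 0 in all of them. Genes of skeletal muscle summed to at most 1.93 FPKM and those of pancreas to at most 37.4 FPKM, with 11 of 16 pancreas genes at 0.

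The 12 largest called rises from day 21 to day 45 were, in order of fold change, those of Rian, Tspan8, Mmp7, Mirg, Mogat2, Epcam, Kifc3, Spp1, Cldn6, Cd24a, Gipc2 and Anxa13. Rian and Mirg are imprinted noncoding RNAs, Mmp7 is a matrix protease, and Epcam, Spp1, Cldn6 and Cd24a are markers of bile duct and liver progenitor cells. In the 14-library fit of limma on log2(FPKM + 1), 34 genes were higher at day 45 at a Benjamini-Hochberg adjusted p under 0.05, which is 0.300% of the genes tested, and 0 were lower, which is 0.00%. Unadjusted p-values under 0.05 were found for 1686 higher and 118 lower genes. The 9-library fit called 527 genes higher, 4.65% of those tested, and 28 lower, 0.247%. These shares are the background for the calls in each list below. All 34 genes were among the 527. For scale, day 21 against day 0 gave 740 higher (6.54%) and 155 lower genes (1.37%) in the 14-library fit, and the knockout against day 0 gave 2106 higher (18.6%) and 1629 lower (14.4%). With the 6 libraries of these days alone, 2 genes were called higher and 1 lower, and 2 of the 34 stayed called. With the replicate letter as a block in the same 6 libraries, 4 were called higher and 1 lower, and 1 of the 34 stayed called. The 12 genes with the largest called fold changes then had adjusted p of 0.0565 to 0.0810, and H19, described below, passed at 0.0215.

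The counts rested on single libraries. The 34 went to 0 without day 21 replicate C and to 0 without day 45 replicate B, to 1 without day 21 replicate B or day 45 replicate C, to 2 without day 21 replicate A, and to 179 without day 45 replicate A. The 555 calls of the 9-library fit, on which most list calls below rest, went to 1 without day 21 replicate B, 17 without day 45 C, 51 without day 21 C, 76 without day 0 C, 81 without day 45 B, 224 without day 0 A, 327 without day 0 B, 343 without day 21 A and 958 without day 45 A. Without both libraries of days 21 and 45 that carry Y-linked transcripts, the number called was 1 in the 14-library fit and 5 in the 9-library fit. The direction of the 34 genes was the same under each of these settings in which a gene was fitted, and the day 45 levels lay above all day 21 levels in each of them, as in 27.7% of all genes tested. The whole distribution was shifted: 74.9% of all genes had a log2 fold change above 0 and their median was 0.15, and with median ratio scaling, which sets the median gene level in the libraries, it was −0.02. Only 2 genes then passed in the 14-library fit, where unadjusted limma p under 0.05 were found for 770 higher and 366 lower genes. In the 9-library fit, that scaling left 97 called higher and 23 lower, with unadjusted limma p under 0.05 for 1375 higher and 754 lower genes.

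**Figure D1:**
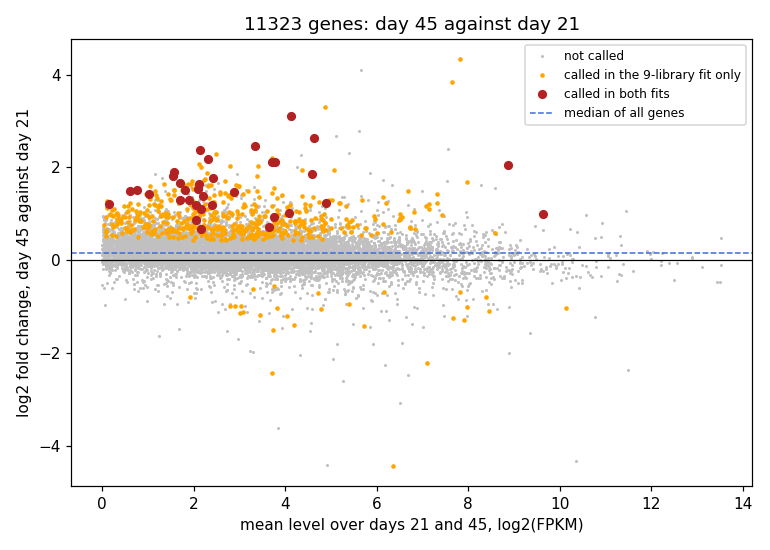
Log2 fold change of each gene from day 21 to day 45 (vertical) against its mean level as log2(FPKM) (horizontal). Red points are the 34 genes called in both fits, orange points those called in the 9-library fit alone, grey points the rest, and the dashed line is the median of all genes at 0.15. Most coloured points lie above the line and at low or moderate levels.

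Of the imprinted loci, Rian and Mirg rose in both fits, and Meg3 and H19 passed in the 9-library fit but not in the 14-library fit. Meg3, Rian and Mirg are noncoding RNAs of the Dlk1-Dio3 locus on chromosome 12, transcribed from the maternal allele, and Rian and Mirg carry small nucleolar RNAs and microRNAs. Rian (chr12:110842155-110899921, mm9) stood at 0.952, 1.87 and 5.80 FPKM in day 21 replicates A, B and C and at 12.01, 45.6 and 38.9 FPKM in day 45 replicates A, B and C. Mirg (chr12:110973191-110987667, mm9) stood at 0.169, 0.388 and 1.60 FPKM at day 21 and 3.56, 12.4 and 8.45 FPKM at day 45. Both transcripts were lower in every day 21 library than in any of day 45, and replicate C was the highest of day 21. The log2 fold change was 3.10 (SE 0.56, limma adjusted p = 0.0426) for Rian and 2.37 (SE 0.38, adjusted p = 0.0280) for Mirg. Meg3 stood at 1.19, 2.91 and 8.31 FPKM at day 21 and 12.7, 89.4 and 61.3 FPKM at day 45, with an adjusted p of 0.0534 in the 14-library fit and 0.0375 in the 9-library fit. Rian was at 0.123 to 0.236 FPKM in the 3 uninjected livers, at 50.8 and 29.0 FPKM in the single livers of days 100 and 200, and at 11.2 to 40.5 FPKM in the knockout.

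On chromosome 7, H19, a maternally expressed noncoding RNA, and Igf2, a paternally expressed fetal growth factor, showed a wider spread. H19 stood at 11.7, 42.9 and 3.92 FPKM at day 21 and 392, 845 and 66.3 FPKM at day 45, and its log2 fold change of 4.33 (SE 0.86) had an adjusted p of 0.0590 in the 14-library fit and 0.0423 in the 9-library fit. Igf2 stood at 0.496, 0.616 and 3.02 FPKM at day 21 and at 39.8, 255 and 3.66 FPKM at day 45. Its groups did not overlap, but day 45 replicate C was only just above day 21 replicate C, and Igf2 passed in neither fit (adjusted p = 0.124 and 0.0706). At days 100 and 200 Igf2 was at 2932 and 2374 FPKM, and in the knockout at 469 to 3169 FPKM. Of the 9 listed transcripts of both loci, Dlk1, Rtl1, Dio3 and Igf2as stayed under the limit on level. Dlk1, which encodes a membrane protein of fetal liver, was at 0.115, 3.51 and 0.727 FPKM at day 45 against at most 0.229 FPKM at day 21. All 5 tested transcripts had unadjusted limma p under 0.05, as had 1686 higher genes among all 11323 tested. The median log2 fold change of the 5 was 3.31 against 0.15 over all genes. Among 13 tested imprinted genes of other loci, Phlda2, a growth-restraining gene of the placenta, was called, from 0.180 to 0.356 FPKM at day 21 to 1.28 to 4.00 FPKM at day 45, and Airn and Slc22a18 were called in the 9-library fit only. Over all genes tested, 0.300% were called higher in the 14-library fit and 4.65% in the 9-library fit. These loci were chosen in the study on the same samples, so their rise is not independent evidence of direction.

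**Figure D2:**
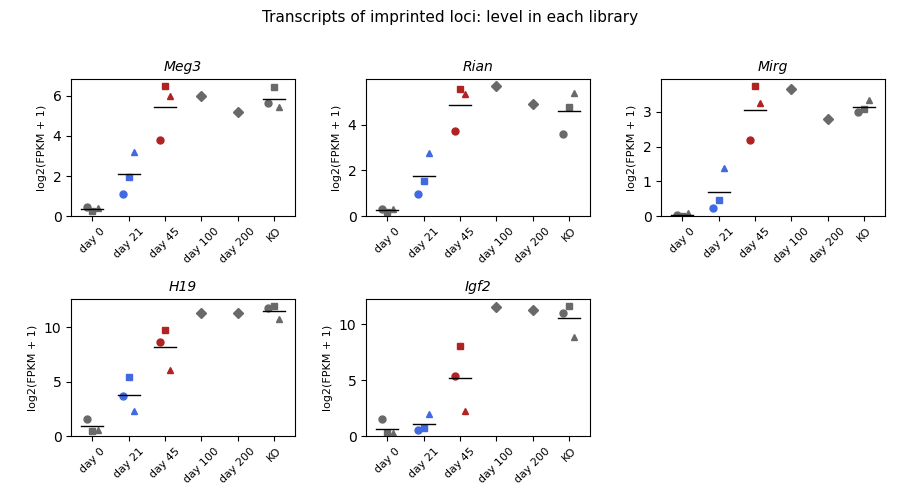
Level of Meg3, Rian, Mirg, H19 and Igf2 in each library as log2(FPKM + 1), by group. Circles, squares and triangles are replicates A, B and C, diamonds single mice, lines group means, and KO is the germline knockout. Day 45 (red) lies above day 21 (blue) in each panel, and for Igf2 the red triangle lies close to the blue one.

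The mature microRNAs of these loci were read in a separate small RNA assay, and their sequences are shown so that they can be set beside the transcripts above. The sequences are from RefSeq (GRCm38.p6), written 5′ to 3′ with the seed, bases 2 to 8, in capitals. The hairpin of miR-410 lies within the span of Mirg and that of miR-483 within the span of Igf2 in mm9, and that of miR-127 lies between Meg3 and Rian.
miR-127-3p: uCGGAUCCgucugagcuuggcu
miR-376a-3p: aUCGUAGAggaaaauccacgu
miR-410-3p: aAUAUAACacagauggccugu
miR-483-3p: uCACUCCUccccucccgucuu
None of these 4 share a seed. The small RNA table names hairpins and not arms, so the values cover either arm, and they are given as RPM, reads scaled to a common library size, computed here without the reads of miR-122. miR-127 stood at 135, 324 and 602 in day 21 replicates A, B and C and at 819, 8029 and 18680 in those of day 45. miR-376a stood at 89.0, 140 and 284 at day 21 and at 2104, 9090 and 7012 at day 45. Both rows were higher in every day 45 library than in any of day 21, with an exact two-sided test unable to go below 0.1. miR-410 was at 0, 4.61 and 18.9 at day 21 and 12.6, 31.0 and 47.4 at day 45, so that its groups overlapped. miR-483 was at 2.29, 0 and 0 at day 21 and at 75.6, 383 and 0 at day 45, where Igf2 too was lowest in replicate C. Whether the small RNA and RNA-seq libraries with the same letter came from the same mouse was not stated in the sources used here.

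Markers of bile duct cells and of the liver progenitor state included 4 genes that rose in the 14-library fit, of 18 tested. Duct cells line the ducts that drain bile, and their markers also appear in hepatocytes of injured liver. Of 21 listed markers 18 were tested, all had a log2 fold change above 0, 17 had all day 45 libraries above all of day 21, and 4 were called in the 14-library fit and 13 in the 9-library fit. Over all genes tested, 74.9% were above 0, 27.7% had all day 45 libraries above all of day 21, and 0.300% and 4.65% were called higher. Their median log2 fold change was 1.79 against 0.15 over all genes, and 1.60 with median ratio scaling. Epcam, an adhesion molecule of duct cells, stood at 3.25, 3.71 and 4.65 FPKM at day 21 and 10.7, 36.4 and 20.5 FPKM at day 45 (log2 fold change 2.13, SE 0.34, adjusted p = 0.0280). Spp1, the secreted matrix protein osteopontin, stood at 129, 170 and 195 FPKM at day 21 and 383, 1259 and 655 FPKM at day 45 (log2 fold change 2.06, SE 0.36, adjusted p = 0.0413). Cldn6, a tight junction protein of fetal epithelium, stood at 0.701, 0.655 and 0.465 FPKM at day 21 and 2.69, 7.93 and 5.44 FPKM at day 45 (log2 fold change 1.89, SE 0.31, adjusted p = 0.0338). In these 3 genes the groups did not overlap, as in all 34 genes called in the 14-library fit. In each of the 3, replicate B was the highest of day 45 and replicate A the lowest. Cd24a, a surface protein of progenitor cells, was at 7.02 to 14.0 FPKM at day 21 and 20.3 to 59.6 FPKM at day 45 (adjusted p = 0.0426). The duct keratins Krt7 and Krt19 and the junction proteins Cldn4 and Cldn7 passed in the 9-library fit only, with log2 fold changes of 2.01, 2.02, 1.91 and 1.89. Sox9, the transcription factor of duct cells, passed in neither fit at a log2 fold change of 0.95 (SE 0.31, adjusted p = 0.167).

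The summed level of the 21 duct markers, to which Spp1 contributed most, was 167, 207 and 233 FPKM at day 21, 485, 1523 and 798 FPKM at day 45, and 59.4 to 80.1 FPKM in uninjected mice. In whole liver, more cells of a type and more of its RNA per cell cannot be told apart. At days 100 and 200 the sum was 3144 and 2094 FPKM, and 627 to 949 FPKM in the knockout.

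**Figure D3:**
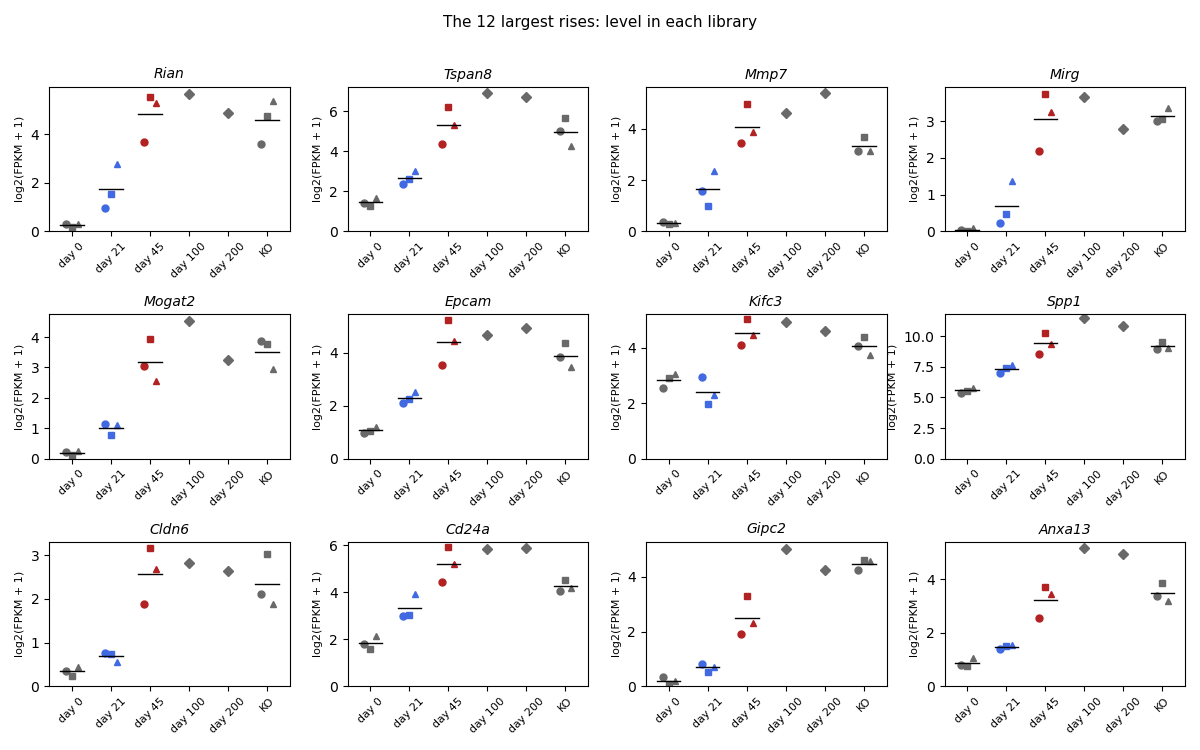
Level of the 12 genes with the largest called log2 fold changes in each library, as log2(FPKM + 1), by group. Circles, squares and triangles are replicates A, B and C, diamonds single mice, lines group means, and KO is the germline knockout. In all 12 panels day 45 (red) lies above day 21 (blue), as the rule that named these genes required. Replicate B, the square, is the highest of day 45 in each.

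Other genes than those of the imprinted loci and the duct list were among the 12 largest rises. Tspan8, a membrane protein of gut and duct epithelium, went from 4.19, 5.10 and 7.05 FPKM at day 21 to 19.4, 74.4 and 38.3 FPKM at day 45 (log2 fold change 2.63, SE 0.42, adjusted p = 0.0280). Mmp7, a protease that cuts matrix and surface proteins, went from 1.99, 0.969 and 4.10 FPKM to 9.99, 30.1 and 13.6 FPKM (log2 fold change 2.46, SE 0.39, adjusted p = 0.0280). Mogat2, which makes diacylglycerol in the gut during fat uptake, went from 1.19, 0.704 and 1.18 FPKM to 7.37, 14.4 and 4.84 FPKM (log2 fold change 2.18, SE 0.37, adjusted p = 0.0413). None of the 3 overlapped between the days, as the rule that named the 12 rises required. Kifc3, a minus-end-directed kinesin of epithelial junctions, was at 6.76, 2.93 and 3.94 FPKM at day 21, below or within the 4.89 to 7.25 FPKM of uninjected livers, and at 16.2, 32.1 and 20.7 FPKM at day 45 (log2 fold change 2.12, SE 0.29, adjusted p = 0.0153). Its difference between day 21 and day 0 did not pass (adjusted p = 0.445). Gipc2, a PDZ protein, and Anxa13, an annexin of gut epithelium, rose by log2 1.82 (SE 0.30, adjusted p = 0.0338) and 1.76 (SE 0.26, adjusted p = 0.0257). Ly6d, a surface protein named among genes of fetal liver and liver cancer, had a larger fold change of 3.84 (SE 0.92), from 15.3, 19.9 and 29.8 FPKM to 263, 707 and 164 FPKM, but passed in the 9-library fit only (adjusted p = 0.0972 and 0.0201).

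The smallest adjusted p, 0.00656, was that of Ttc39a, a tetratricopeptide repeat protein, which stood at 1.62, 1.79 and 1.33 FPKM at day 21 and 6.43, 8.39 and 6.28 FPKM at day 45 (log2 fold change 1.63, SE 0.18). Settings chosen after seeing the data not counted, it was called in 15 of 18 alternatives, more than any other of the 34 genes, whose numbers ran from 5 for Mybl1 to 12 for Kifc3. None of the 34 was called in the 14-library fit without both libraries of days 21 and 45 that carry Y-linked transcripts, which is not among the 18. Snx17, a sorting nexin that recycles membrane receptors, stood at 17.4, 15.8 and 19.3 FPKM at day 21 and 41.1, 42.1 and 43.4 FPKM at day 45 (log2 fold change 1.23, SE 0.16, adjusted p = 0.0153). Slc25a34, a mitochondrial carrier, stood at 2.31, 3.22 and 2.98 FPKM and then at 7.28, 7.95 and 7.99 FPKM (log2 fold change 1.19, SE 0.16, adjusted p = 0.0153). These 3 genes were close in all day 45 mice, unlike the duct markers. Apoc2, the apolipoprotein that activates lipoprotein lipase, was the most abundant of the called genes, at 547, 553 and 499 FPKM at day 21 and 1144, 1088 and 972 FPKM at day 45 (log2 fold change 1.00, SE 0.18, adjusted p = 0.0426). Mybl1, a Myb family transcription factor, was at 0.720 to 1.95 FPKM at day 21 and 4.85 to 7.30 FPKM at day 45, but at 0.041 to 0.296 FPKM in the knockout.

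All 34 were higher at both day 100 and day 200 than in every uninjected liver, as were 53.0% of all genes tested, and 32 were higher in all 3 knockout libraries than in every uninjected liver, as were 20.7% of all genes. The exceptions were Mybl1 and Hist3h2a, a histone gene that was at 2.24 to 2.63 FPKM in the knockout and 1.96 to 2.56 FPKM in uninjected mice. All of these libraries, uninjected, knockout and days 100 and 200, also entered the 14-library fit through its estimate of the spread, so they are not independent of the calls. In 28 of the 34, day 45 replicate B was the highest of its day, as in 55.9% of all genes tested, where A was the highest in 14.7% and C in 29.4%. At day 21 the mean level was under 10 FPKM for 30 of the 34 and under 1 FPKM for 8.

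Fetal and oncofetal genes, those active in fetal liver or liver cancer, were at a median log2 fold change of 1.03 over 18 tested, all above 0, against 74.9% of all genes. Epcam and Cd24a, both shared with the duct list, were called in the 14-library fit, and Ly6d, Afp, Mdk, Sox4 and Golm1 besides them in the 9-library fit, against 0.300% and 4.65% of all genes. Afp, the fetal serum protein, was at 2.45, 1.22 and 1.91 FPKM at day 21 and 5.10, 12.8 and 6.53 FPKM at day 45, and missed the threshold of the 14-library fit (adjusted p = 0.0534). Sox4, a transcription factor of progenitors that the study names, was at 0.617 to 1.13 FPKM at day 21 and 2.90 to 9.21 FPKM at day 45 (adjusted p = 0.102 and, in the 9-library fit, 0.0419). Gpc3, a fetal surface proteoglycan, passed in neither fit at 0.49 (SE 0.34). The other transcripts the study names did not pass in either fit: Nr6a1 had a log2 fold change of −0.09, Pdcd4 −0.19, Srsf7 −0.02, Stag2 −0.15, Cux1 0.08 and Eif2c2, the symbol used here for Ago2, −0.03. Trf, which encodes transferrin, was listed at 0 in 5 of the 6 libraries and at 7843 FPKM in day 21 replicate C, and it was 1 of 8 tested genes with such a 0 beside a level of 100 FPKM or more, so no change is given for it.

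Of 16 tested collagens 15 had a log2 fold change above 0, against 74.9% of all genes, with a median of 0.92, and Col4a1, Col5a2, Col6a1 and Col16a1 passed in the 9-library fit, where 4.65% of all genes were higher, and none in the other. Col4a1, of the basement membrane, was at 11.7, 8.65 and 10.3 FPKM at day 21 and 19.8, 52.1 and 21.7 FPKM at day 45. Col1a1, the main collagen of scars, had a log2 fold change of 1.41 (SE 0.51, adjusted p = 0.208 and 0.0564). Of 40 other matrix proteins, proteases and inhibitors, 36 were above 0 (median 0.78), with Mmp7 called, where 0.300% of all genes were, and Lum, Loxl1, Mmp15, Lamb2 and Loxl2 among the 7 called in the 9-library fit. All 20 tested markers of stellate cells and myofibroblasts, which make the matrix, were above 0 (median 0.76), of which 2 (Cygb and Lum) passed in the 9-library fit. The summed level of the stellate markers was 369 to 384 FPKM at day 21 and 497 to 840 FPKM at day 45. Genes of the actin cytoskeleton and focal adhesions had a median of 0.46 over 41 tested, with 0 called in the 14-library fit and Anxa2, Anxa5, Ezr, Rhoc, Anxa3, Tpm4 and Tpm1 called in the other, against 0.300% and 4.65% of all genes.

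Cell cycle genes had a median of 0.71 over 32 tested, and 30 were above 0, against 74.9% of all genes. The 7 that passed in the 9-library fit, where 4.65% of all genes were higher, Mcm2, Mcm5, Mcm6, Mcm4, Pcna, Mcm3 and Mcm7, all belong to DNA replication. Mcm2, of the replicative helicase, was at 1.93, 1.48 and 2.08 FPKM at day 21 and 4.27, 7.82 and 5.72 FPKM at day 45 (log2 fold change 1.27, SE 0.25, adjusted p = 0.0596 in the 14-library fit). Among early response factors, Myc and Gadd45g passed upward and Klf10 downward in the 9-library fit, while the median of the 24 tested was −0.21. Of targets of YAP and Notch, which set duct fate, Jub, the older symbol of Ajuba, was called (2.39 to 4.07 FPKM at day 21, 9.96 to 13.5 FPKM at day 45, adjusted p = 0.0280) and Ankrd1 passed in the 9-library fit. Targets of Trp53, the tumour suppressor p53, had a median of 0.17, close to all genes, with Ddit4l and Plk2 passing in the 9-library fit. The antioxidant targets of NRF2 were above 0 in 24 of 25 (median 0.61), against 74.9% of all genes, of which the bile acid exporter Abcc4 passed in the 9-library fit and Nqo1 did not (log2 fold change 1.26, SE 0.31, adjusted p = 0.0554).

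**Figure D4:**
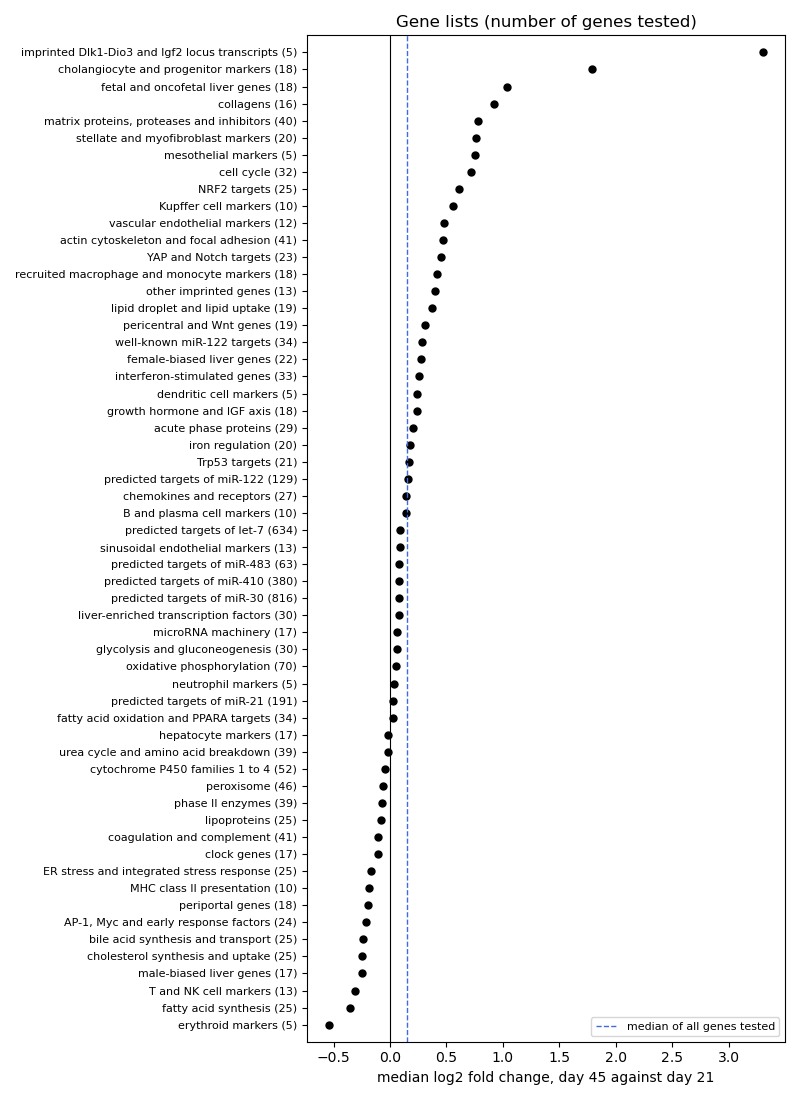
Median log2 fold change from day 21 to day 45 of each gene list with at least 5 tested genes, with the number tested in parentheses. The dashed line is the median of all genes tested at 0.15, and imprinted loci, duct markers and fetal genes lie farthest above it.

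Median log2 fold changes of the lists of hepatocyte metabolism were −0.24 for cholesterol synthesis and uptake (25 tested), −0.36 for fatty acid synthesis (25), −0.24 for bile acid synthesis and transport (25), −0.20 for periportal genes (18), −0.05 for cytochrome P450 families (52), −0.07 for phase II enzymes (39), −0.01 for urea cycle and amino acid breakdown (39), −0.06 for peroxisome (46) and −0.10 for coagulation and complement (41). They were 0.05 for oxidative phosphorylation (70), 0.03 for fatty acid oxidation (34), 0.06 for glycolysis and gluconeogenesis (30), −0.08 for lipoproteins (25), 0.37 for lipid droplets and uptake (19), 0.08 for liver-enriched transcription factors (30) and −0.01 for hepatocyte markers (17), or −0.08 without Trf, Serpina1b and Ahsg, 3 of the 8 genes listed at 0 beside a high level. Genes of the unfolded protein and integrated stress responses were at −0.17 (25). With median ratio scaling, where the median of all genes was −0.02, some medians above 0 turned in sign. They were then −0.15 for oxidative phosphorylation, −0.18 for fatty acid oxidation, −0.09 for glycolysis and gluconeogenesis and −0.10 for liver-enriched transcription factors. In these lists the 14-library fit called Apoc2 and nothing else. The 9-library fit called Apoc2, the lipid droplet protein Plin5, Sdsl and Abcc4 higher, where 4.65% of all genes were, and Uox, Slco1b2, Cyp2d13, Cyp2c50, 2810007J24Rik, Pigr and Herpud1 lower, where 0.247% were. Scd1, the desaturase that makes oleic acid, was at 1238, 580 and 454 FPKM at day 21 and 98.2, 144 and 353 FPKM at day 45 (log2 fold change −2.00, SE 0.57), and passed in neither fit (adjusted p = 0.135 and 0.0812). Mlxipl, the factor ChREBP that turns on fat synthesis, was at 57.7, 46.9 and 39.0 FPKM and then at 27.9, 29.9 and 33.5 FPKM (adjusted p = 0.122 and 0.0501). Both were lower in every day 45 library than in any of day 21.

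Few genes were called lower at day 45. No gene passed in the 14-library fit, and the following are those with the smallest unadjusted p. Rgs16, a regulator of G protein signalling, stood at 75.1, 177 and 225 FPKM at day 21, at 6.21, 7.63 and 4.01 FPKM at day 45 and at 18.0 to 81.7 FPKM in uninjected livers (log2 fold change −4.42, SE 0.99, adjusted p = 0.0862 and, in the 9-library fit, 0.0201). Gm4841, an interferon-inducible GTPase, stood at 19.5, 14.0 and 36.1 FPKM at day 21 and at 3.81, 3.02 and 2.80 FPKM at day 45 (log2 fold change −2.43, SE 0.49, adjusted p = 0.0596 and 0.0239). Lyve1, a hyaluronan receptor of sinusoidal vessels, stood at 8.86, 13.9 and 11.6 FPKM at day 21 and at 5.18, 5.35 and 3.43 FPKM at day 45 (log2 fold change −1.14, SE 0.25, adjusted p = 0.0862 and 0.0412). In these 3 genes all day 21 libraries lay above all of day 45, as in 2.86% of the genes tested. Gm4841 and Lyve1 were also higher at day 21 than at day 0 (limma adjusted p = 0.00461 and 0.00513). Both comparisons use the same day 21 libraries, so the difference from day 0 is not independent of that from day 45. Klf10, an early response repressor, Scnn1a, a sodium channel subunit, and Rsc1a1 passed in the 9-library fit with log2 fold changes of −1.20, −0.79 and −0.54. 1500017E21Rik and Gm10319 passed there too, at −1.40 and −1.03, and Gbp1, an interferon-induced GTPase, did not (−1.12, adjusted p = 0.0615). Rgs16 also varied widely in the knockout, from 3.60 to 82.5 FPKM.

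**Figure D5:**
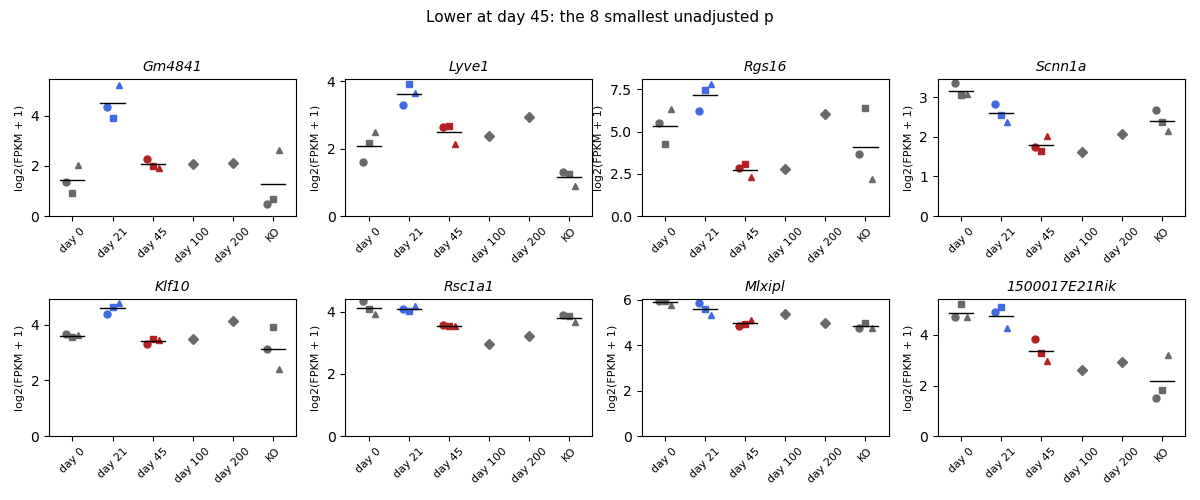
Level in each library, as log2(FPKM + 1), of the 8 genes with the smallest unadjusted p among those lower at day 45. Circles, squares and triangles are replicates A, B and C, diamonds single mice, lines group means, and KO is the germline knockout. In all 8 panels day 45 (red) lies below day 21 (blue), and none of these genes passed in the 14-library fit.

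Among the 28 lower genes of the 9-library fit were Slco1b2, Pigr and Uox. Slco1b2, an uptake transporter for bile acids and drugs, was at 444, 520 and 459 FPKM at day 21 and 252, 246 and 174 FPKM at day 45 (log2 fold change −1.10, adjusted p = 0.0241). Pigr, which carries IgA into bile, was at 339, 307 and 205 FPKM and then at 174, 108 and 84.7 FPKM (log2 fold change −1.24, adjusted p = 0.0422). Uox, the peroxisomal urate oxidase, was at 1544, 1486 and 1485 FPKM and then at 760, 554 and 952 FPKM (log2 fold change −1.03, adjusted p = 0.0375). Each of these had separate groups, as did all 28 genes called lower in this fit, against 2.86% of all genes tested. Herpud1, of the unfolded protein response, Serpina7, the thyroxine-binding globulin, Arrdc3, Ghr, the growth hormone receptor, and 2810007J24Rik, the older symbol of the sulfotransferase Sult2a8, were lower as well. In the 14-library fit the adjusted p of Slco1b2 was 0.375, and its knockout replicate C stood at 514 FPKM beside 62.8 and 77.0 FPKM in A and B. All 3 knockout libraries lay below all of day 0 in 13 of the 28 (46.4%), against 13.4% of all genes tested, and all 3 lay above in 347 of the 527 higher genes (65.8%), against 20.7%. Days 100 and 200 were both below day 0 in 17 of the 28, against 11.6% of all genes tested. Day 0 libraries entered the fit of these calls.

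Lists of inflammation and of blood and vessel cells differed in direction. Acute phase proteins had a median of 0.21 over 29 tested with 0 called in either fit, and Lcn2, a siderophore-binding protein, had the smallest p, at 41.7, 56.4 and 62.8 FPKM at day 21 and 295, 534 and 146 FPKM at day 45 (adjusted p = 0.123 and 0.0530). Interferon-stimulated genes had a median of 0.26 over 33, and in the 9-library fit Oasl1 was higher and Iigp1 lower. MHC class II genes had a median of −0.19 over 10, chemokines and receptors 0.14 over 27, and neither held a call. All 10 markers of Kupffer cells, the resident macrophages, were above 0 (median 0.56), against 74.9% of all genes, without a call, and their summed level was 583 to 760 FPKM at day 21 and 841 to 983 FPKM at day 45. Of recruited macrophage markers 17 of 18 were above 0 (median 0.41), with Spp1, shared with the duct list, called in both fits and Cd9 in the 9-library fit. T and NK cell markers were below 0 in 12 of 13 (median −0.31), with Gzma, a granzyme, lower in the 9-library fit, and their sum was 45.0 to 81.2 FPKM at day 21 and 31.6 to 44.8 FPKM at day 45. B and plasma cell markers had a median of 0.14 over 10, dendritic cell markers 0.24 over 5, neutrophil markers 0.04 over 5 and erythroid markers −0.54 over 5, with 0 called. Vascular endothelial markers had a median of 0.48 over 12, with Tie1 called in the 9-library fit, and sinusoidal markers 0.08 over 13, with Lyve1 lower there. The list of mesothelial markers had a median of 0.75 over 5, and its only call was the keratin Krt8, in the 9-library fit. Upk1b, Wt1 and Lrrn4 of that list were under the limit on level. How far changes in cell make-up took part in the gene results was not tested.

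Pericentral and Wnt genes had a median of 0.31 over 19, with Rhbg, an ammonium transporter, called in the 9-library fit, growth hormone and IGF genes 0.24 over 18, or 0.37 without Serpina1b, with Ghr lower there, iron regulation 0.18 over 20, or 0.21 without Trf, and clock genes −0.11 over 17. Male-biased liver genes had a median of −0.25 over 17 and female-biased genes 0.28 over 22, with 0 called. Slco1a1, a male-biased transporter, was at 37.3, 52.4 and 104 FPKM at day 21 and 9.64, 2.47 and 24.9 FPKM at day 45 (log2 fold change −2.60, SE 0.91, adjusted p = 0.195). The groups of Slco1a1 did not overlap, and the library with Y-linked transcripts was the highest on both days.

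Targets of miR-122 were examined because its share was lower at day 45. Well-known miR-122 targets had a log2 fold change above 0 in 33 of 34 tested (74.9% over all genes), with a median of 0.29 against 0.15 over all genes and 0.10 with median ratio scaling. None was called in the 14-library fit, and Gpx7 and Agpat1 were called in the other. Gpx7, a peroxidase of the endoplasmic reticulum, was at 9.998, 8.997 and 6.899 FPKM at day 21 and 18.7, 24.9 and 15.2 FPKM at day 45. Agpat1, which makes phosphatidic acid, was at 26.8, 17.3 and 18.0 FPKM and then at 35.3, 35.4 and 33.5 FPKM. Aldoa, the aldolase of muscle and fetal liver and a standard miR-122 target, was at 165, 153 and 211 FPKM and then at 257, 255 and 397 FPKM, and passed in neither fit (adjusted p = 0.183 and 0.0571). In the list of 129 predicted miR-122 targets that the authors compiled, the median was 0.16, 95 were above 0, and Slc25a34 and Arfip2, an Arf-binding protein, were called. With G6pc3, Git1, Calm3, Vamp3 and Zfp282, 7 were called higher in the 9-library fit, where 4.65% of all genes were.

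For microRNAs other than miR-122, the lists of predicted targets, as available here, showed medians below that of all genes: 0.03 for miR-21 (191 tested), 0.09 for let-7 (634), 0.08 for miR-30 (816), 0.08 for miR-410 (380) and 0.08 for miR-483 (63). No member of these lists was called in the 14-library fit. In the 9-library fit 2, 13, 13, 5 and 0 were higher and 1, 3, 1, 1 and 0 lower, in that order, where 4.65% and 0.247% of all genes were. The lists name no arm. The mature forms below are shown because matches to their seeds, and to those of miR-410 and miR-483 given above, were counted in the lists.
let-7a-5p: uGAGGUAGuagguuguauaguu
miR-21a-5p: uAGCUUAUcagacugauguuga
miR-30a-5p: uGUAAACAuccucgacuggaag
The match to bases 2 to 8 was GTTATAT for miR-410-3p and was found in the longest annotated 3′ untranslated region of 38.2% of the 377 listed genes that had one, against 8.02% of all 10990 tested genes with one. For miR-410-5p, with GACAACC, the shares were 8.49% and 6.07%. AGGAGTG of miR-483-3p was found in 30.0% of 60 listed genes and 12.3% of all, and CCCGTCT of miR-483-5p in 5.0% and 3.28%. The matches of let-7a-5p (CTACCTC), miR-21a-5p (ATAAGCT) and miR-30a-5p (TGTTTAC) were found in 63.3%, 74.3% and 74.5% of their lists, against 10.2%, 7.06% and 14.7% of all. Only the sense strand was searched, and a match is a description of letters. Genes of the microRNA machinery had a median of 0.07 over 17, with Tarbp2, a partner of Dicer, called in the 9-library fit.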

How the data were processed

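Livers of floxed mice at days 0, 21, 45, 100 and 200 and of knockout mice gave 14 poly-A RNA-seq libraries, each of 1 mouse. Groups followed the labels. The authors aligned paired reads to mm9 with TopHat and deposited FPKM per transcript locus from Cufflinks 2.2.1 with quartile normalisation. Their methods state that ribosomal, small nucleolar and mitochondrial sequences were removed, while the table still lists small nucleolar RNAs such as Snora64. Quartile scaling can shift all genes of a library together, and FPKM hold no read numbers, so the depth is unknown and no count model was used. For small RNA, the authors aligned reads to microRNAs with Bowtie 0.12.7 and deposited RPM with 1 added, which was removed here. 33 small RNA columns, from livers of other days after Cre, of other ages and of liver-specific knockout mice, were not used.

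For 224 symbols listed more than once, the rows were added up. limma 3.58.1 in R 4.3.3 (lmFit, eBayes with trend) was run on log2(FPKM + 1) of 11323 genes, those whose FPKM averaged 1 or more over days 21 and 45, in 1 fit of 5 groups, days 100 and 200 together, and p-values were adjusted by Benjamini-Hochberg over all genes at a threshold of 0.05. A fold change on this scale understates that of low genes. Spreads are between mice. Older symbols were matched through RefSeq synonyms. Paralogs such as Mup, Cyp2 and Serpina1 genes share reads and are uncertain, as are antisense pairs, since strand use was not given in the sources used here. Columns of authors' comparisons were not used.

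Named genes were the 12 largest rises among called genes whose groups did not overlap, the 10 falls of smallest p since none was called lower, called members of each list, and the genes the study names. The members and lists were chosen with earlier results of these data known, and genes named for their 9-library call, together with Ttc39a, Snx17, Apoc2, Mybl1, Hist3h2a, Scd1, Slco1a1 and the microRNAs, were chosen after their values were seen. Same-letter libraries of days 21 and 45 deviated from their day's mean together (r of 0.275, 0.237 and 0.502 for A, B and C), pairs of different letters had r of −0.413 to 0.263, while the labels do not say what a letter stands for, and replicate C carried Y-linked transcripts on both days.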

Additional observations from a re-analysis of the deposited data

How the results depend on the processing

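The call counts depended on the fit, while the direction of the 34 genes did not: each kept a log2 fold change above 0 under every alternative in which it was fitted. Against 34 genes called between days 21 and 45 in the 14-library fit, 3 were called with the 6 libraries alone (2 higher, 1 lower), 555 with the 9 libraries of days 0, 21 and 45, 61 and 54 with pseudocounts of 0.1 and 0.01, 10 with no filter on low values and 10 with a mean of at least 5 FPKM, 2 with median ratio size factors, 15 with equal sums of FPKM, and 1910 with array weights, whose estimate did not converge. Robust moderation and the largest row of a symbol left 34. The replicate block in the 6 libraries, pairing mice by letter, gave 5, with 1 of the 34 among them, against 3 and 2 of the 34 in the same libraries without it. Leaving out 1 library gave 0 to 179. Among settings chosen after seeing the data, Y-linked transcripts as a covariate gave 67 with 14 libraries and 748 with 9, leaving out both libraries with such transcripts gave 1 and 5, and all libraries except the knockout gave 759. The 9-library fit with median ratio size factors gave 120 (97 higher, 23 lower). Leaving out 1 library from the 9-library fit without that scaling gave 1 (day 21 replicate B), 17 (day 45 C), 51 (day 21 C), 76 (day 0 C), 81 (day 45 B), 224 (day 0 A), 327 (day 0 B), 343 (day 21 A) or 958 (day 45 A). Without the genes listed at 0 beside a high level, chosen after seeing the data, the median of growth hormone and IGF genes was 0.37 in place of 0.24.

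Knockout against day 0 called 3735 genes and day 21 against day 0 called 895, and at a mean of at least 5 FPKM these were 2378 and 543, with fewer genes tested. In the 9 libraries, day 21 against day 0 called 1805. Single genes turned in sign only near 0: Nr6a1 from −0.09 to 0.10 without day 21 replicate A (−0.27 to 0.10 over libraries left out), Srsf7 from −0.02 to 0.20 without the libraries with Y-linked transcripts, and Cux1 from 0.08 to −0.11 with median ratio size factors. Of 668 values of single genes under settings other than those chosen after seeing the data, 523 stayed on their side of the threshold, 114 lost it, 29 gained it and 2 turned in sign. The miR-122 share was lower at day 45 in all alternatives run. The cause of these differences was not tested. Each day has 3 mice, 1 of them with Y-linked transcripts, and depth cannot be read from FPKM.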
